A study of Mus musculus with 9 samples.

Results

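The 10 genes described here are the resident Kupffer cell genes Clec4f, Timd4, Marco, Vsig4, Cd5l, Folr2, Cd163, Adgre1, Csf1r and Mertk, chosen by symbol and matched by Entrez Gene identifier. They are 10 of the 17846 genes listed for the liver of 9 male wild type mice, and all 10 passed the filter on low counts together with 13619 genes in all. The strain is C57/BL in the labels and C57BL/6 in the study's methods. The 3 groups hold 3 mice each, with 1 RNA sequencing library per mouse. Control mice ate a normal chow diet and stayed sedentary. NASH mice stayed sedentary on the Ath diet, an atherosclerotic diet with added cholesterol and cholate, for 20 weeks. NASH+Exercise mice ate the same Ath diet for 12 weeks and then trained on a treadmill for 8 weeks while the diet went on, so that both Ath diet groups had 20 weeks of it. NASH stands for non-alcoholic steatohepatitis, a fatty liver with inflammation. No gene was altered and no cells were sorted, and the livers were taken after a night of fasting.

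Kupffer cells are the macrophages that live inside the liver sinusoids and clear bacteria, dying cells, worn red cells and modified lipoproteins from the blood. They are seeded before birth and normally renew themselves locally, and their identity depends on signals from hepatocytes, stellate cells and endothelial cells. When resident cells are lost, blood monocytes can enter the niche and take on Kupffer cell genes step by step, with Clec4f gained early and Timd4 late. Clec4f and Timd4 are therefore used as markers of Kupffer cells and of long-resident macrophages, whereas Adgre1, Csf1r and Mertk are also made by other macrophages.

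The regulatory sequence of the markers is given first, as a description, and any tie to their levels was not tested. Macrophage genes are commonly bound by PU.1, the product of Spi1, which recognises purine-rich sites around the core GGAA. The motifs GAGGAA and GGAAGT, chosen after the values of these genes were known, were searched on both strands in the 250 bases before the transcript start of RefSeq (GRCm38.p6). The 2 motifs can share bases. Of the 10 members 8 had an entry, and Adgre1 and Csf1r had none. GAGGAA was found for 3 of the 8 (Marco, Vsig4 and Cd5l) against 25.9% of 27025 genes, GGAAGT for 4 (Clec4f, Timd4, Vsig4 and Folr2) against 22.2%, and either of them for 6 against 40.2%. A match is only a run of letters, and nothing about binding was measured. The windows of 5 members are printed 5′ to 3′ on the strand of the gene, with the matches in capitals; they lie at chr6:83656117-83656366 on the minus strand for Clec4f, chr11:46810549-46810798 on the plus strand for Timd4, chr1:120505025-120505274 on the minus strand for Marco, chrX:96293439-96293688 on the minus strand for Vsig4 and chr3:87357631-87357880 on the plus strand for Cd5l. The capitals in the Cd5l window are the motif on the opposite strand, and Vsig4 holds GAGGAA at 2 places and GGAAGT at 1.
Clec4f: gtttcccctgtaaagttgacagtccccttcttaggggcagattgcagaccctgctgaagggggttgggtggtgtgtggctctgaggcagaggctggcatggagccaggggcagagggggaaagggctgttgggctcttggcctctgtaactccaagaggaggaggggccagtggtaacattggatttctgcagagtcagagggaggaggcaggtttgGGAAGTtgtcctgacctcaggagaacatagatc
Timd4: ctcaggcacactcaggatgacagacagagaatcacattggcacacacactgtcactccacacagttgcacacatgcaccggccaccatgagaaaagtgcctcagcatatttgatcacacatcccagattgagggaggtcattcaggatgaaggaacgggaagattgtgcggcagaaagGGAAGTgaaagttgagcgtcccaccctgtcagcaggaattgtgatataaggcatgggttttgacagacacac
Marco: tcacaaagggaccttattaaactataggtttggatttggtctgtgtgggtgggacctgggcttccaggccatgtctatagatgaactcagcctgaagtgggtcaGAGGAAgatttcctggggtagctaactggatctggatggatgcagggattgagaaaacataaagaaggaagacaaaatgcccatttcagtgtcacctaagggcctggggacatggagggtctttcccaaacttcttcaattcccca
Vsig4: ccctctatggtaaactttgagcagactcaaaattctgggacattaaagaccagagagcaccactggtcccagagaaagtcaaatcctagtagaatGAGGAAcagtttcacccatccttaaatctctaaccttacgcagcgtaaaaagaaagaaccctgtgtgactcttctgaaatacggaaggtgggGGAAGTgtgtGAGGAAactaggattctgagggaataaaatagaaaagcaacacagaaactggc
Cd5l: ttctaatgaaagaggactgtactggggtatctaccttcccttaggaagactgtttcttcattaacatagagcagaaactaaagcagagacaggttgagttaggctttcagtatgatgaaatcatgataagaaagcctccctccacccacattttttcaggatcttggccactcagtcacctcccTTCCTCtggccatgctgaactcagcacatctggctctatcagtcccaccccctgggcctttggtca

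Libraries held 20085976 to 22495408 estimated counts after rounding. Values are given on 2 scales. CPM, the count relative to the library total scaled by the trimmed mean of M values (TMM), serves to compare a gene between groups, and TPM, the share of transcripts corrected for transcript length, serves to compare genes with one another. The scales differ between groups: the median of all tested genes was 0.44 higher in NASH than in Control livers on the log2 TPM scale and 0.01 higher after TMM scaling, and in NASH+Exercise against NASH livers it was -0.33 and -0.03. A gene counted as called where the adjusted p was under 0.05 and the log2 fold change was beyond 1 in either direction, by the quasi-likelihood test of edgeR, with p values adjusted over all tested genes by the method of Benjamini and Hochberg. Where nothing more is said, errors are SD over 3 mice and adjusted p values are from that test. The labels name one library per mouse and say nothing of litters or cages, so the p values measure the spread between these 9 samples only.

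In Control livers the 10 genes were expressed at low levels, with mean TPM from 1.91 ± 0.765 for Cd163 to 23.8 ± 9.96 for Cd5l (SD, n = 3). In that group only Marco and Timd4, at ranks 7 and 8 of the 10, were neighbours whose ranges did not overlap; every other neighbour in the order overlapped the next one. In NASH livers Cd5l led with 294 ± 35.4 TPM, ahead of Clec4f at 78.5 ± 24.5 TPM without overlap. Csf1r, Vsig4, Marco and Folr2 followed at 67.8, 59.9, 52.5 and 41.8 TPM, and among these 4 each range overlapped the next. In both Ath diet groups Cd5l was first, Clec4f second and Cd163 last. Summed over the 10 genes, the Control livers held 65.2 to 131 TPM, the NASH livers 514 to 780.2 TPM and the NASH+Exercise livers 430.3 to 527 TPM. Cd5l, a secreted scavenger protein, made up 26.6% ± 0.381 of that sum in Control livers, 46.5% ± 4.24 in NASH livers and 45.1% ± 1.32 in NASH+Exercise livers.

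**Figure D1:**
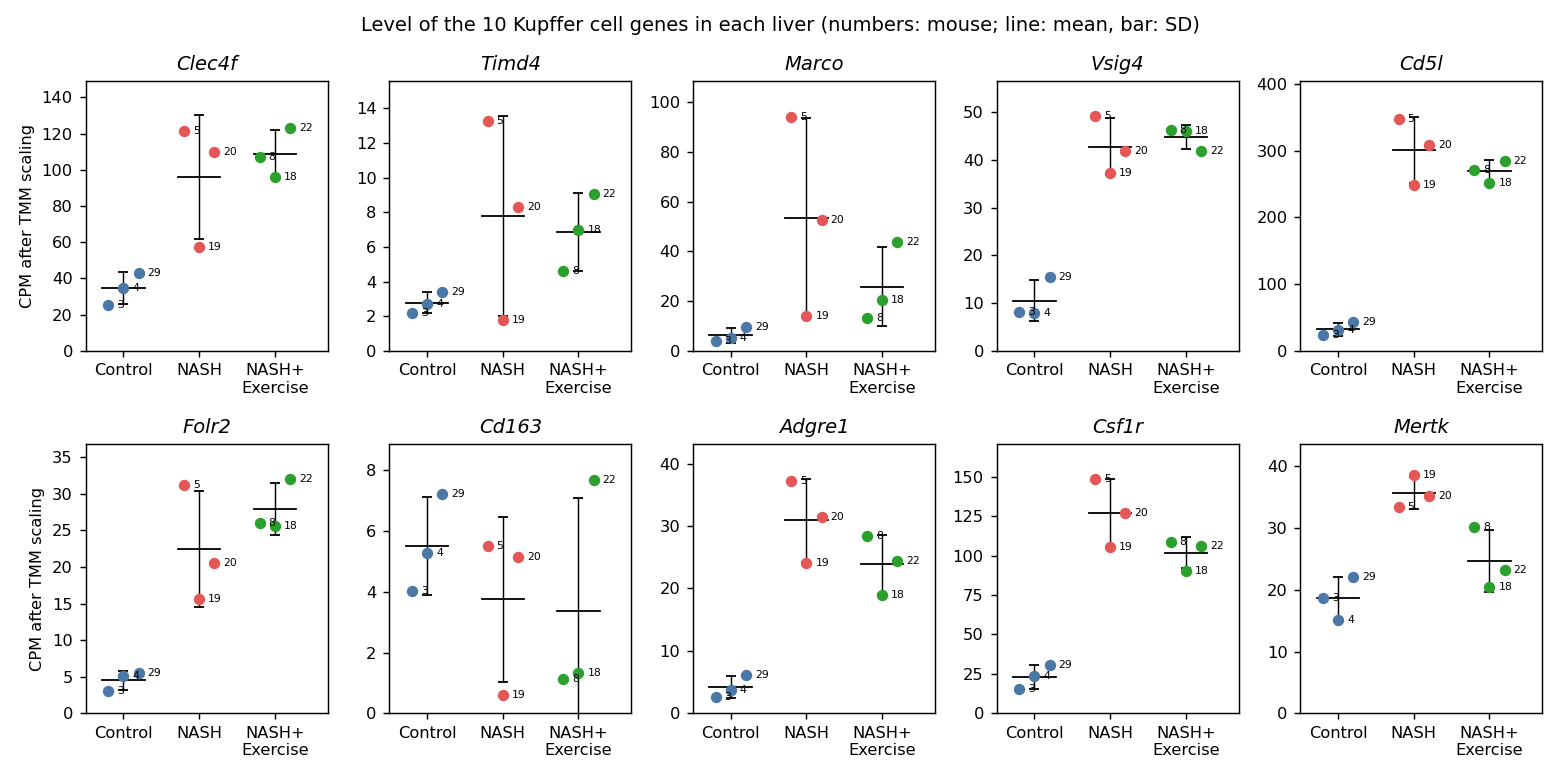
CPM after TMM scaling of each member (vertical axis, a separate scale per gene) in every liver by group. Points are mice with their numbers, lines are group means and bars SD. For 8 of the 10 genes every NASH mouse lies above every Control mouse, while the ranges of Timd4 and Cd163 overlap.

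Clec4f, a lectin made by Kupffer cells in the mouse, rose in both Ath diet groups. It measured 25.5, 34.8 and 43.1 CPM in Control mice 3, 4 and 29. NASH mice 5, 19 and 20 had 121, 57.2 and 109.7 CPM, and NASH+Exercise mice 8, 18 and 22 had 107, 96.1 and 123 CPM. All Ath diet livers were above all Control livers, and NASH mouse 19 was the lowest of the 6. The log2 fold change was 1.48 (SE 0.28, adjusted p = 0.00253) in NASH against Control and 1.66 (SE 0.28, adjusted p = 0.00193) in NASH+Exercise against Control. Between the Ath diet groups it was 0.18, with a 95% interval of -0.42 to 0.78 and an adjusted p of 0.806.

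Timd4, a receptor that binds phosphatidylserine on dying cells, did not pass the test in any comparison. Its CPM was 2.2, 2.72 and 3.42 in Control, 13.3, 1.78 and 8.33 in NASH, and 4.58, 6.99 and 9.07 in NASH+Exercise livers. NASH mouse 19 was below every Control mouse and the other 2 NASH mice were above them. The log2 fold change in NASH against Control was 1.48 (SE 0.59, adjusted p = 0.0808). Without NASH mouse 19 the gene was called, at 1.93 with an adjusted p of 0.00202, and without NASH mouse 5 the estimate was 0.85 with an adjusted p of 0.288. With all 9 mice kept, DESeq2 called it, at 1.45 with an adjusted p of 0.0204, and so did edgeR scaled by library size alone, at 1.79 with an adjusted p of 0.0322. NASH+Exercise and Control livers did not overlap, the log2 fold change was 1.30 (SE 0.60, adjusted p = 0.149), and fits to the 6 mice compared called it, with adjusted p values of 0.0158 in edgeR and 0.00155 in DESeq2. NASH+Exercise against NASH gave -0.18 with a 95% interval of -1.44 to 1.08, the widest after Cd163 and Marco.

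Marco, a scavenger receptor that takes up bacteria and particles, rose in NASH livers and had the widest interval among the members that rose. It measured 4.08, 4.95 and 9.59 CPM in Control livers. In NASH livers it measured 94.1, 13.9 and 52.5 CPM, and in NASH+Exercise livers 13.4, 20.3 and 43.7 CPM. Every Ath diet liver was above every Control liver. The log2 fold change was 3.10 (SE 0.71, adjusted p = 0.00824) in NASH against Control. Without Control mouse 4 it was 2.94 and the adjusted p 0.0565, no longer under the threshold, and without NASH mouse 5 it was 2.41 with an adjusted p of 0.0233. For NASH+Exercise against Control it was 2.05 (SE 0.69, adjusted p = 0.0583), not called, although DESeq2 on 9 mice gave an adjusted p of 0.0363 and edgeR on the 6 mice compared 0.0209, and it was 1.43 without NASH+Exercise mouse 22. Marco had the lowest estimate of the 10 in NASH+Exercise against NASH, -1.05, but its 95% interval ran from -2.50 to 0.40 (adjusted p = 0.469). The estimate was -0.36 without NASH mouse 5 and -1.66 without NASH+Exercise mouse 22.

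Vsig4 is a complement receptor for C3 fragments that captures coated bacteria. It measured 8.21, 7.84 and 15.4 CPM in Control, 49.2, 37.2 and 41.9 CPM in NASH, and 46.2, 46.1 and 41.9 CPM in NASH+Exercise livers. The Ath diet groups lay within a narrow band well above Control. The log2 fold change was 2.02 (SE 0.24, adjusted p = 0.000132) in NASH against Control, and 0.07 in NASH+Exercise against NASH with a 95% interval of -0.43 to 0.56.

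Cd5l, also known as AIM, is secreted by tissue macrophages and binds lipids and IgM. It measured 23.3, 30.4 and 42.7 CPM in Control livers, 347, 248 and 309 CPM in NASH livers and 271, 252 and 285 CPM in NASH+Exercise livers. It rose 9.38-fold in NASH against Control, or by 3.23 on the log2 scale (SE 0.22, adjusted p = 6.79e-06). That was the highest estimate of the 10, close to that of Marco, which was higher without NASH mouse 19 (3.53 beside 3.32) and without Control mouse 29 (3.53 beside 3.45). NASH+Exercise against Control gave 3.07 (SE 0.22, adjusted p = 1.38e-05). Between the Ath diet groups the estimate was -0.16, with a 95% interval of -0.62 to 0.29.

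Folr2, a folate receptor of resident macrophages, and Cd163, a scavenging receptor for haemoglobin, are described next. Folr2 measured 3.06, 5.06 and 5.46 CPM in Control, 31.2, 15.7 and 20.6 CPM in NASH, and 26.1, 25.6 and 32.0 CPM in NASH+Exercise livers. It rose by 2.31 on the log2 scale in NASH against Control (SE 0.28, adjusted p = 0.000178) and by 2.62 in NASH+Exercise against Control (SE 0.28, adjusted p = 0.000145). It had the highest estimate of the 10 in NASH+Exercise against NASH, 0.31, with a 95% interval of -0.26 to 0.88.

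Cd163 was the member with a negative estimate against Control, and it passed no test. It measured 4.03, 5.28 and 7.19 CPM in Control mice, 5.49, 0.621 and 5.14 CPM in NASH mice and 1.13, 1.32 and 7.65 CPM in NASH+Exercise mice. NASH mouse 19 and NASH+Exercise mice 8 and 18 were below all Control mice, and NASH+Exercise mouse 22 was the highest of the 9. The log2 fold change was -0.56 in NASH against Control, with a 95% interval of -2.39 to 1.28 and an adjusted p of 0.637. It was -0.72 in NASH+Exercise against Control, with an interval of -2.57 to 1.14 and an adjusted p of 0.585, and without NASH+Exercise mouse 22 it was -2.16 (adjusted p = 0.0842). The estimated counts of Cd163 were not whole numbers, and those of Folr2 and Adgre1 were whole in all 9 mice. Those of Csf1r were not whole in Control mouse 3 (284.97) and NASH mouse 19 (2723.34), and genes overlapping Csf1r were not looked up. Annotated long non-coding RNAs overlap Cd163 (Gm52877) and Folr2 (Gm10602), and annotated pseudogenes overlap Adgre1 (Gm18069 and Gm20243), so reads may be shared. Whether counting used strand is not given in the sources used here.

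Adgre1 encodes F4/80, the surface protein used to stain mouse macrophages. It measured 2.68, 3.78 and 6.12 CPM in Control, 37.2, 24.0 and 31.5 CPM in NASH, and 28.4, 18.9 and 24.4 CPM in NASH+Exercise livers. It rose by 2.87 on the log2 scale in NASH against Control (SE 0.29, adjusted p = 6.33e-05) and by 2.50 in NASH+Exercise against Control (SE 0.29, adjusted p = 0.000226). Between the Ath diet groups it was -0.37, with a 95% interval of -0.95 to 0.21 and an adjusted p of 0.532.

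Csf1r is the receptor for CSF1 and IL-34, on whose signal macrophages depend for survival. It measured 15.3, 23.6 and 30.5 CPM in Control livers, then 149, 106 and 127 CPM in NASH and 109, 90.4 and 106 CPM in NASH+Exercise livers. The log2 fold change was 2.46 in NASH against Control (SE 0.23, adjusted p = 3.48e-05) and 2.14 in NASH+Exercise against Control (SE 0.23, adjusted p = 0.000132). Between the Ath diet groups it was -0.32, with a 95% interval of -0.81 to 0.16.

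Mertk, a receptor tyrosine kinase that drives uptake of dying cells, had the smallest estimate of the 9 members above zero in NASH against Control. It measured 18.7, 15.1 and 22.1 CPM in Control, 33.4, 38.5 and 35.1 CPM in NASH, and 30.2, 20.4 and 23.3 CPM in NASH+Exercise livers. Its log2 fold change in NASH against Control was 0.94 (SE 0.17, adjusted p = 0.00204), past the p threshold and short of the minimum fold. Without Control mouse 29 it was 1.04, past that minimum, and with scaling by library size alone it was 1.27, where the median of all tested genes was itself 0.36. Mertk was the member with the lowest p in NASH+Exercise against NASH, where its CPM ranges did not overlap: the estimate was -0.53 (SE 0.17), the unadjusted p 0.0105 and the adjusted p 0.205. It was not called there. Against Control, the NASH+Exercise range overlapped and the estimate was 0.40 (SE 0.17, adjusted p = 0.121).

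Counted together, 7 of the 10 members were called higher in NASH against Control and none lower, where 15.3% of all tested genes were called higher. By adjusted p alone 8 passed, against 21.2% of all tested genes. The CPM of all NASH mice was above that of all Control mice for 8 members, against 27.4% of all tested genes. The median log2 fold change of the 10 was 2.17, beside 0.01 over all tested genes. In NASH+Exercise against Control, which shares the Control mice, 6 were called higher (10.4% of all tested genes) and 8 did not overlap (21.5%), with a median of 2.07. In bulk liver, a change in the number of cells of a type and a change of RNA per cell cannot be told apart.

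In NASH+Exercise against NASH, which shares mice with both other comparisons, edgeR called 0 of the 10 members, beside 0.14% of all tested genes. Mertk was the 1 member with an unadjusted p under 0.05, which 15.3% of all tested genes reached. DESeq2 and limma also called 0 members. Of the 10 estimates 7 were below zero, with a median of -0.17, beside -0.03 over all tested genes. On the TPM scale, 3 members (Cd5l, Csf1r and Mertk) were lower in every NASH+Exercise mouse than in every NASH mouse, where 37.6% of all tested genes were; after TMM scaling this held for Mertk alone, against 14.9% of all tested genes.

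**Figure D2:**
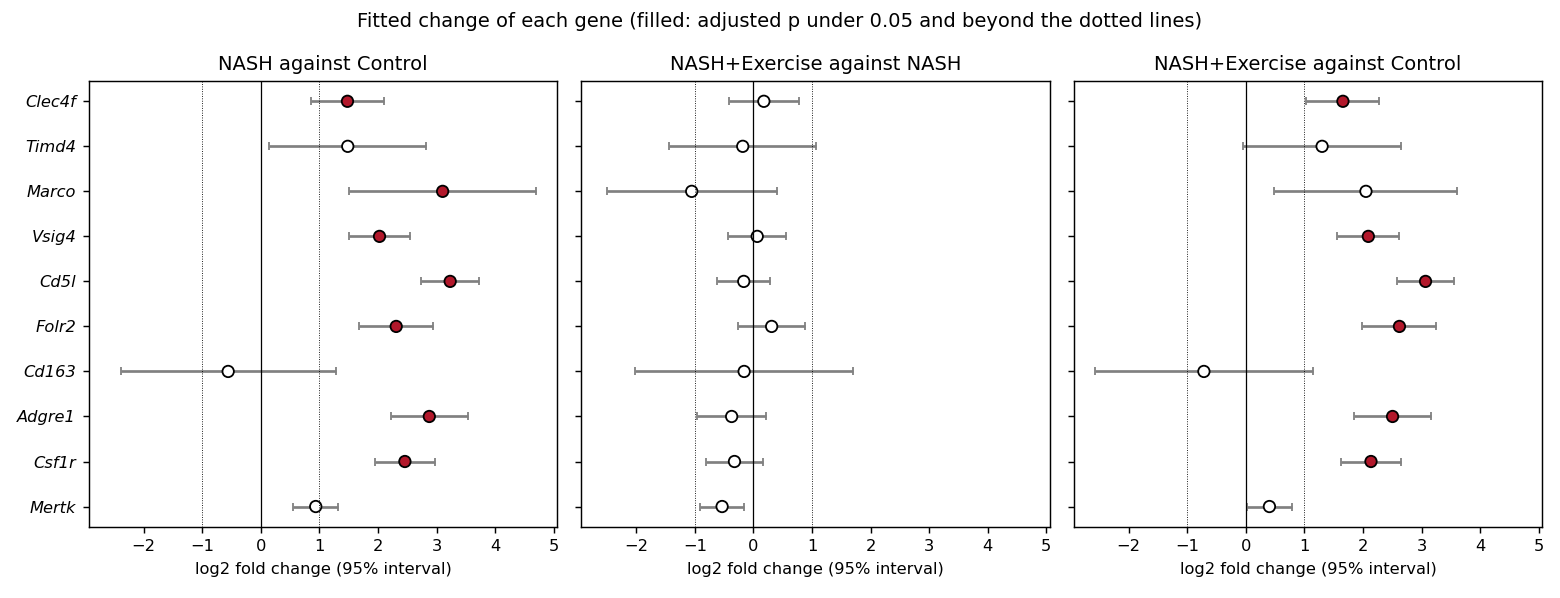
Log2 fold change of each member in the 3 comparisons (horizontal axis) with its 95% interval; filled points passed the adjusted p and the minimum fold, drawn as dotted lines at -1 and 1. Filled points number 7, 0 and 6 from left to right, and the intervals of Timd4, Marco and Cd163 are the widest.

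Clec4f, a marker of Kupffer cells, and Timd4, a marker of long-resident macrophages, were set against Adgre1 in each liver, as a ratio of TPM. The question was whether they kept pace with Adgre1, which other macrophages also make. Monocytes that enter the niche gain Clec4f early, so the Clec4f ratio cannot be read as a share of resident cells. Adgre1 is itself a member and not an outside reference. The Clec4f to Adgre1 ratio was 12.3, 11.5 and 9.08 in Control, 4.26, 2.99 and 4.47 in NASH, and 4.75, 6.34 and 6.19 in NASH+Exercise livers. The 3 groups did not overlap: Control was highest, NASH lowest and NASH+Exercise between them. The difference in log2 ratio was -1.50 in NASH against Control, 0.57 in NASH+Exercise against NASH and -0.93 in NASH+Exercise against Control. Each gave p = 0.1 in an exact two-sided permutation test, the smallest p that 3 mice against 3 allow (0.12 after Benjamini-Hochberg adjustment over 6 comparisons), so this design cannot pass the threshold. Adgre1 itself rose by 2.87 on the log2 CPM scale in NASH against Control, beside a median of 0.01 over all tested genes. A gene that did not change would thus also be lower relative to Adgre1. Between the Ath diet groups the fold changes were 0.18 for Clec4f and -0.37 for Adgre1 on the log2 scale, neither called. The share of all tested genes with ratios apart in this way was not computed.

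The Timd4 to Adgre1 ratio was 1.29, 1.21 and 0.892 in Control, 0.663, 0.109 and 0.418 in NASH, and 0.290, 0.633 and 0.617 in NASH+Exercise livers. Both Ath diet groups were below Control without overlap, with log2 differences of -1.84 for NASH and -1.21 for NASH+Exercise and an exact permutation p of 0.1 each. Without NASH mouse 19 the NASH difference was -1.08, and without NASH mouse 5 it was -2.39. The Ath diet groups overlapped each other, with a log2 difference of 0.64 and an exact permutation p of 0.7. Without NASH mouse 19 that difference was -0.12. The rise of Adgre1 against Control bears on the Timd4 ratio too.

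The same ratio is given for the other members without a test, and the rise of Adgre1 bears on it as well. Csf1r, which other macrophages also make, stood at 4.14 to 4.99 times Adgre1 in Control and 3.35 to 3.57 times in NASH livers, and Vsig4 at 4.37 to 6.70 and 2.89 to 3.30 times, so that both were lower in NASH livers without overlap. Marco, at 1.98 to 2.45 times in Control livers, lay within the NASH range of 0.882 to 4.004 times. Cd5l stood at 10.6 to 13.2 times Adgre1 in Control and 14.4 to 15.3 times in NASH livers. Folr2, at 2.59 to 3.77 times in Control and 1.86 to 2.47 times in NASH livers, was at 2.61 to 3.82 times in NASH+Exercise livers. Mertk stood at 2.32 to 4.52 times Adgre1 in Control livers, beside 0.614 to 1.01 times in NASH livers and 0.577 to 0.682 times in NASH+Exercise livers. Cd163 was at 0.837 to 1.04 times in Control and 0.0193 to 0.118 times in NASH livers. In NASH+Exercise livers Csf1r was at 3.11 to 3.86 times and Cd163 at 0.0275 to 0.213 times, both below Control without overlap. Cd5l, at 14.2 to 19.6 times, was above Control without overlap. Vsig4, at 3.46 to 5.15 times, and Marco, at 0.718 to 2.67 times, overlapped Control.

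**Figure D3:**
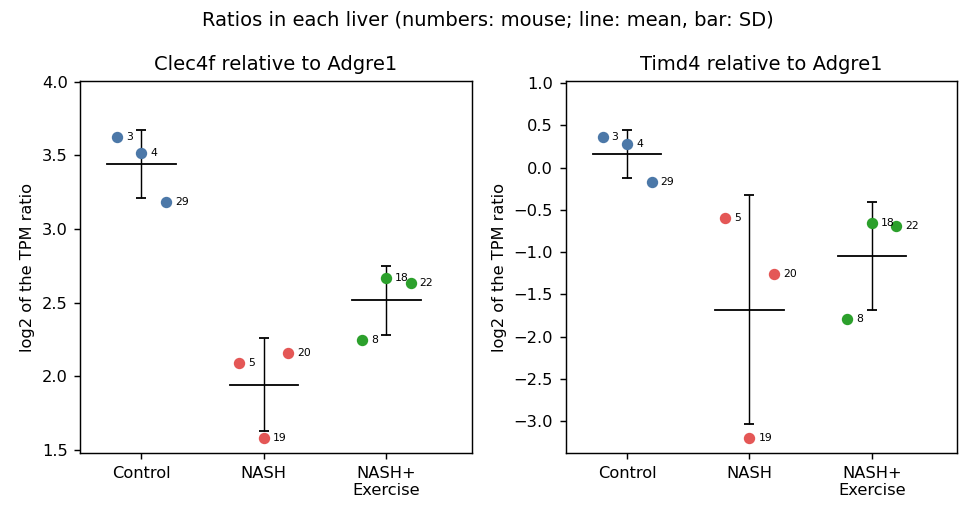
Log2 of the TPM ratio of Clec4f (left) and Timd4 (right) to Adgre1 in every liver by group; points are mice with their numbers, lines are group means and bars SD. The 3 groups are apart for Clec4f, with NASH+Exercise between Control and NASH, and NASH mouse 19 lies far below the others for Timd4.

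Mice of a group differed in many members at once. Control mouse 29 was above the mean log2 CPM of its group for 10 of 10 members, and NASH mouse 5 for 9. NASH mouse 19 was below its group mean for every member except Mertk, by -1.67 for Timd4, -1.55 for Marco and -1.95 for Cd163, but by only -0.34 for Adgre1 and -0.25 for Csf1r. NASH+Exercise mouse 22 was above its group mean for 8 members, by 1.70 for Cd163 and 0.93 for Marco. The same mice stood apart in other genes. The summed TPM of 14 genes of recruited monocytes and lipid-associated macrophages was 1222 in NASH mouse 19 beside 459.6 and 540.4 in the other NASH mice, and that of 13 general macrophage genes was 307 in Control mouse 29 beside 155 and 188 in the other Control mice. Of the 14 genes, Spp1 alone held 520 TPM in NASH mouse 19, beside 115 and 117 TPM in NASH mice 5 and 20. Ly6c2 went the other way, at 15.6 TPM beside 19.8 and 22.9 TPM. The rest of the 14 were highest in mouse 19 among the NASH mice. The part of these mice and genes in the values of the members was not tested.

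**Figure D4:**
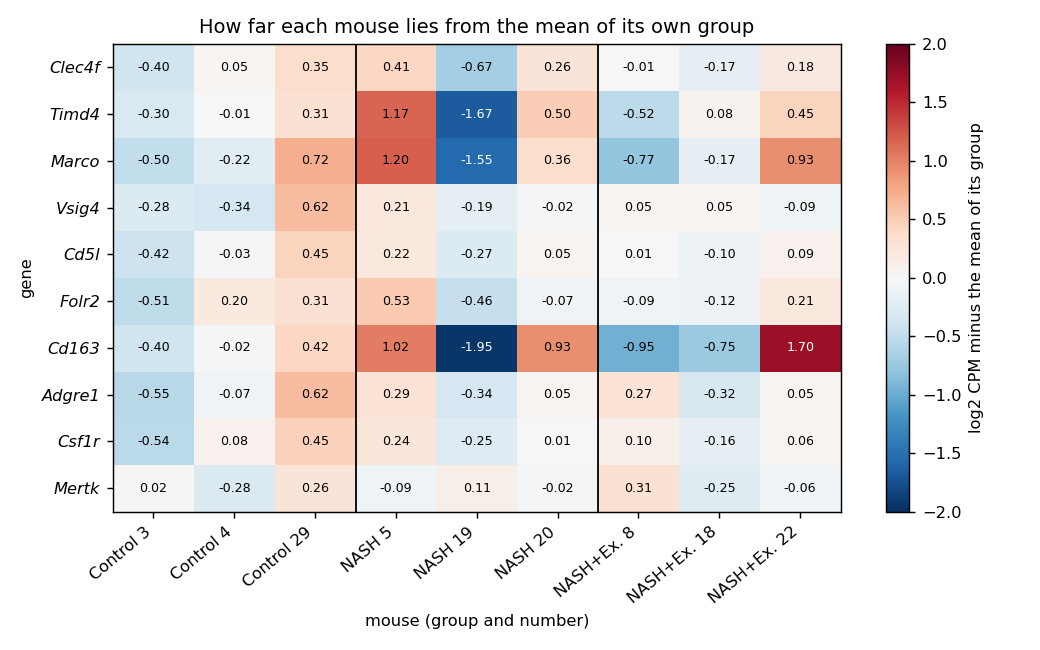
Log2 CPM of each member (vertical axis) in each mouse (horizontal axis) minus the mean of the mouse's group, printed in each cell; red is above and blue below the group mean, and black lines part the groups. The column of NASH mouse 19 is below zero for all members but Mertk, and Timd4, Marco and Cd163 spread most.

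The ligands of these receptors were read next, with haptoglobin (Hp) counted among them. CSF1 and IL-34 act on Csf1r, GAS6 and protein S (Pros1) bridge dying cells to Mertk, and complement C3 feeds Vsig4. Haptoglobin binds haemoglobin, which Cd163 takes up. Of the 6, edgeR called 4 higher in NASH against Control, where 15.3% of all tested genes were. Csf1 went from 6.33, 8.40 and 11.8 CPM in Control to 24.7, 27.9 and 27.7 CPM in NASH livers, a log2 fold change of 1.60 (SE 0.20, adjusted p = 0.000198). Il34 rose by 1.49 (SE 0.28, adjusted p = 0.00211) and Gas6 by 1.53 (SE 0.17, adjusted p = 8.22e-05). Gas6 thus rose in livers where its receptor Mertk was higher by 0.94. Hp rose by 1.26 (SE 0.23, adjusted p = 0.00161), while Cd163 did not pass the test. Pros1, at 0.84 (SE 0.17, adjusted p = 0.00338), passed the p threshold only, and C3, at 0.32 (SE 0.20, adjusted p = 0.245), neither. Between the Ath diet groups 0 of the 6 were called, with Gas6 at -0.48 (SE 0.16, unadjusted p = 0.0153, adjusted p = 0.229). Against Control, the same 4 were called in NASH+Exercise livers (10.4% of all tested genes), from 1.05 for Gas6 to 1.55 for Hp.

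Genes related to the members by family or by Kupffer cell identity moved in part. Of 13 relatives 11 were tested and 7 were called higher in NASH against Control, where 15.3% of all tested genes were. Axl, the sister receptor of Mertk, rose by 2.72 (SE 0.16, adjusted p = 4.55e-06), Havcr2, a receptor of the same family as Timd4, by 3.92 (SE 0.43, adjusted p = 7.5e-05), and Scara5, a ferritin scavenger receptor, by 3.38 (SE 0.40, adjusted p = 0.000185). Among 11 transcription factors of Kupffer cells 4 were called higher, against the same 15.3%. These included Spi1 at 2.91 (adjusted p = 2.24e-05), Irf8 at 2.63 (adjusted p = 4.04e-06) and Spic, which serves iron-recycling macrophages, at 2.62 (adjusted p = 0.000156). Id3, which holds Kupffer cell identity, was at -0.51 with an adjusted p of 0.0268, short of the minimum fold. Nr1h3 was at -0.28 with an adjusted p of 0.112. On the TPM scale Id3 averaged 110 in Control and 104 in NASH livers, and Nr1h3 84.1 and 94.8. Both stood above every member in Control livers, and which liver cells their RNA came from was not tested. Of 7 niche signals, Tgfb1 (1.81, adjusted p = 5.79e-05) and Acvrl1 (1.71, adjusted p = 4.07e-05) were called higher, against 15.3% of all tested genes.

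Of 14 other genes known from Kupffer cells, 10 were called higher (15.3% of all tested genes) and 1 lower (3.03%) in NASH against Control. The median of the 14 was 1.46. Il18bp (2.76, adjusted p = 3.4e-06), Siglec1 (2.54, adjusted p = 0.000233) and Kcna2 (2.53, adjusted p = 0.000841) rose most, and Paqr9, which hepatocytes also express, fell by 2.85 (adjusted p = 0.00013). Between the Ath diet groups, edgeR called 0 genes of the relatives, the transcription factors, the niche signals and the other Kupffer cell genes. The medians of these lists were -0.36, -0.04, -0.16 and -0.20.

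Lists of macrophage genes in general and of recruited cells had larger median changes than the members. All 13 general macrophage genes were called higher in NASH against Control, where 15.3% of all tested genes were. The median of the 13 was 3.19, and Lyz2 led at 3.97 (adjusted p = 7.86e-06). Of 14 genes of recruited monocytes and lipid-associated macrophages 13 were called higher, with a median of 4.25, led by Gpnmb at 8.40 (adjusted p = 4.9e-05) and Mmp12 at 7.48 (adjusted p = 1.91e-05). Their summed TPM spanned 55.8 to 110 over Control, 459.6 to 1222 over NASH and 253 to 423 over NASH+Exercise livers. These sums too carry the shift of the TPM scale between groups. None of the genes was at 0 in all mice of a group. Neither list had a gene called in NASH+Exercise against NASH, where the medians were -0.41 and -0.91, beside -0.17 for the members. Of the 13 general macrophage genes 12 were lower in every NASH+Exercise mouse than in every NASH mouse, where 14.9% of all tested genes were. These lists were described by counts, and the difference between the lists was not tested.

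**Figure D5:**
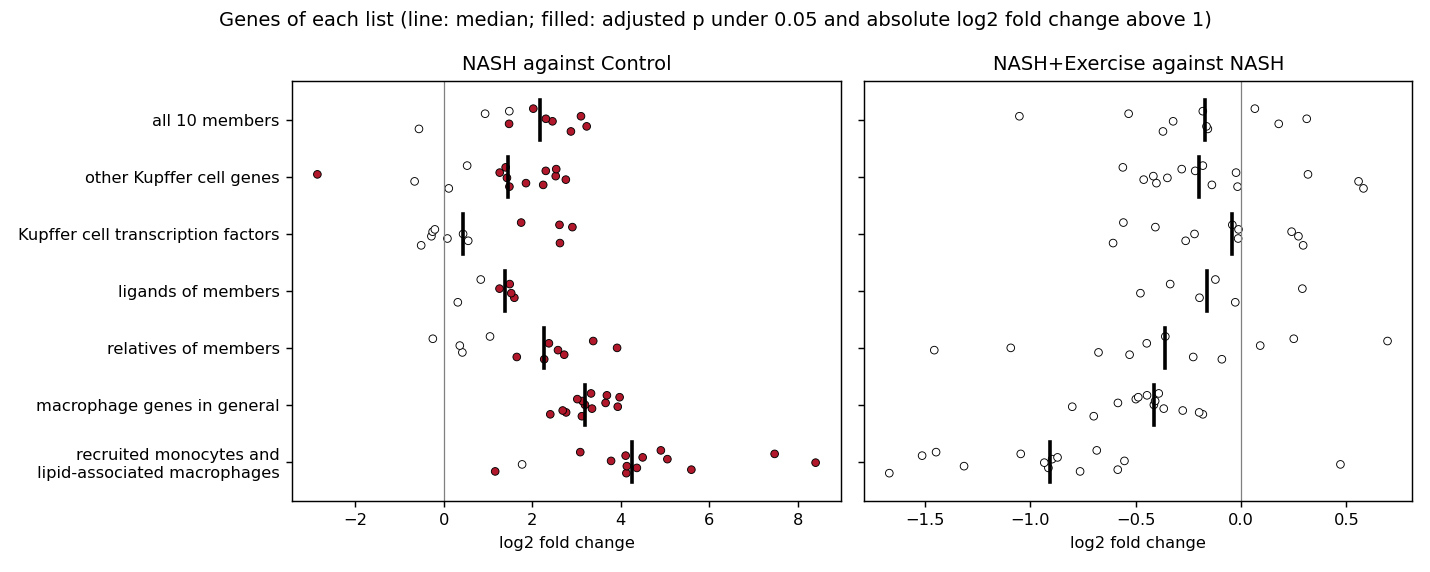
Log2 fold change (horizontal axis) of every tested gene of 7 lists in NASH against Control (left) and NASH+Exercise against NASH (right); lines are medians and filled points were called. On the left the medians run from 0.44 for the transcription factors over 2.17 for the members to 4.25 for recruited cells; on the right no point is filled.

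Markers of other cells gave the setting of these values. The summed TPM of 6 hepatocyte genes spanned 94816 to 105736 over Control, 87828 to 109933 over NASH and 76179 to 97662 over NASH+Exercise livers. Of the 6, 0 were called in any comparison, and 1 was lower by adjusted p alone in NASH against Control. After TMM scaling 5 of the 6 estimates in that comparison were below zero, with a median of -0.37. By CPM every NASH mouse was below every Control mouse for 3 of the 6 (22.2% of all tested genes) and above for 1 (27.4%). Of 8 sinusoidal endothelial genes, Lyve1 was called higher in NASH against Control (1.29, adjusted p = 0.0192), and of 4 stellate cell genes Pdgfrb was (1.56, adjusted p = 0.000231). All 4 T cell genes, 4 of 5 neutrophil genes, 3 of 5 dendritic cell genes, both tested eosinophil genes of 4 and 2 of 3 tested genes of peritoneal macrophages were called higher, and 0 of 3 B cell genes were. Beside these counts and those of the endothelial and stellate cell genes, 15.3% of all tested genes were called higher in NASH against Control. In Control livers 2 of the 4 eosinophil genes, Prg2 and Epx, were at 0 in every mouse. In NASH livers Epx stayed at 0 and Prg2 was at 0.1, 0 and 0 TPM, while Siglecf had 13 to 29.6 estimated counts. Of the peritoneal macrophage genes Prg4 (2.04) and Icam2 (1.16) were called, Gata6 (0.25) was not, and Alox15 did not pass the filter. The part of these cells in the values of the members was not tested.

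The genes whose log2 CPM followed each member most closely over the 9 mice were read from all other tested genes, as a description: the 9 points fall into 3 groups and share their libraries. The complement genes C1qb and C1qc and properdin (Cfp) followed Cd5l, with a Pearson correlation of 0.996 for C1qb and 0.840 once group means were subtracted. Adgre1 was followed by Siglec1 (0.996), Itgal and Lilra5, and Csf1r by Sdc3 (0.996), Laptm5 and Lilra5. Fam167a came first for both Clec4f and Folr2, each at 0.984, ahead of Rfwd3 and Ccl24 for Clec4f and of 6430548M08Rik and Irf5 for Folr2. Vsig4 was followed by Emilin2 (0.992), Tnfaip3 and Kcnj10, and Mertk by Ube2c (0.990), Lims1 and Nlrc4. The closest genes to the 3 members that varied most within a group were others again: Adcy4 (0.963), Itgb3 and Mafk for Marco, Hps4 (0.919), Upp1 and Sptb for Timd4, and Ulk1 (0.955), Klf10 and Cyth2 for Cd163.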

How the data were processed

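RNA sequencing libraries of 9 mouse livers, 3 per group, were analysed, grouped by the labels. The authors deposited estimated counts per gene (not normalized, 29.0% to 32.8% of values not whole) and TPM values. The submitters' processing notes name HISAT2 2.1.0, Bowtie2 2.2.5, RSEM 1.2.8 and GRCm38.p6, with no role or order. The deposited FPKM values were not used. Of 428304 values given in more than one file, 0 differed. Symbols were matched to RefSeq for 17728 of 17846 genes.

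Estimated counts were rounded and fitted with edgeR 4.0.16 (R 4.3.3, robust quasi-likelihood, TMM, filterByExpr with at least 10 counts and a total of 15, all 9 mice, no covariate), with Benjamini-Hochberg adjustment over 13619 genes. The model was tested on simulated data. DESeq2 1.42.0, limma 3.58.1 on log2(TPM + 1) and log2(TPM + 0.1), other scalings and filters, and leaving out each mouse were alternatives. Log2 TPM ratios were compared by exact permutation. The common biological coefficient of variation was 0.192. How far depth and the 3 mice of each group each limited precision was not tested. Intervals of fold changes are at the 95% level.

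The members, the gene lists and the promoter motifs were chosen with earlier results of these data known. All members and ligands are named, with up to 3 called genes of the largest change per list and direction, else the 2 of the highest TPM, and the 3 genes most alike to each member; of genes not called the report names few. Id3 and Nr1h3 were named after their values were seen.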

Additional observations from a re-analysis of the deposited data

How the results depend on the processing

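The number of members called stayed at 6 to 9 of 10 in NASH against Control and at 6 to 8 in NASH+Exercise against Control under every alternative run, and at 0 in NASH+Exercise against NASH. Over all tested genes that last comparison gave 19 calls with edgeR, 174 with DESeq2 on 9 mice, 204 with DESeq2 on the 6 mice compared, 110 with limma on log2(TPM + 1), and 0 to 34 with 1 mouse left out. Of the alternative fold changes of members, 390 kept their direction and their side of the threshold, 15 passed it newly, 1 (Marco) lost it, and 14 changed sign, all in NASH+Exercise against NASH and none of them called. There Clec4f was -0.0064 by library size, -0.0562 with either TPM fit and -0.0686 to 0.38 with 1 mouse left out. Vsig4 was -0.13 by library size, -0.22 and -0.23 with the TPM fits, and -0.0075 to 0.18 with 1 mouse left out. Timd4 ranged from -0.64 to 0.45 and Cd163 from -1.60 to 0.27 with 1 mouse left out, with Cd163 at 0.23, 0.14, 0.27 and 0.23 without NASH mice 5 and 20 and NASH+Exercise mice 8 and 18, and Timd4 at 0.05 without NASH+Exercise mouse 8. The log2 ratio of Timd4 to Adgre1 in NASH+Exercise against NASH ranged from -0.12 to 1.18 with 1 mouse left out; the other ratio differences kept their direction, also against Cd68. Scaling by library size alone moved the median of all tested genes to 0.36 in NASH against Control, -0.23 in NASH+Exercise against NASH and 0.15 in NASH+Exercise against Control. The cause of these differences was not tested. No paired analysis was possible because the groups share no replicate number. With 3 mice per group, the 95% intervals of every member except Mertk spanned zero between the Ath diet groups, most widely for Cd163, Marco and Timd4.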
